A study of Mus musculus with 10 samples.

Results

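The collagen genes of the mouse were followed in colon tumours that lacked Bcl9 and Bcl9l and in wild-type tumours. Members were all genes of the array annotation whose symbol has the collagen form (Col, a type number, a and a chain number), each represented by the probe set with the highest mean over the 10 arrays among those with a single gene symbol. This gave 42 of 18193 genes, carried by 82 probe sets: 27 genes had several probe sets and 15 had 1. Of the collagen genes named in RefSeq, Col28a1 and Col6a6 had no probe set under that symbol.

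The KO group held 5 tumours of vil-Cre-Bcl9-/-/Bcl9l-/- mice: tumours 2 and 6 came from mouse 02, tumours 9 and 11 from mouse 04, and tumour 7 from mouse 99. The WT group held 5 tumours of mice labelled wild type, with no Cre named for them: tumours 1, 3, 12 and 13 came from mouse 72 and tumour 8 from mouse 82. Tumour numbers here were taken from the sample ids. The sample titles use the word tumor for another number, which is called the sample number here. Animals of both groups had a mixed 129SvEv/C57BL/6/DBA/2 background and were 6 to 8 weeks old when they received 44 mg/kg dimethylhydrazine, a carcinogen precursor, followed by 2% dextran sulfate sodium in drinking water for 7 days, which injures the colon lining. Tumour tissue was cut out by laser and its amplified RNA was measured on Affymetrix whole-genome mouse arrays, 1 per tumour. The villin promoter of vil-Cre acts in gut epithelium, while most collagens are made by stromal cells, and the recombination in each cell type was not analysed here. Bcl9 and Bcl9l tie beta-catenin to Pygo proteins in Wnt signalling, and the comparison asks which transcripts differ in tumours without them.

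Collagens are triple helices of alpha chains, each chain encoded by its own gene. Fibroblasts secrete most fibrillar chains as procollagens, which are hydroxylated and folded in the endoplasmic reticulum, trimmed outside the cell and cross-linked by lysyl oxidases. In the colon, collagens I, III and V form the fibrils of the stroma, collagen VI forms beaded filaments around cells, and collagens IV, VII, XV, XVII and XVIII lie at or near the basement membrane that carries the epithelium.

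The deposited values were log2 RMA signals, which are relative to each probe set, so levels of different genes are not set against each other. Array medians lay between 6.43 and 6.50. Of the 5 probe sets for Bcl9 and Bcl9l, 0 passed the threshold in either direction. KO minus WT was 0.21 and 0.32 log2 for those of Bcl9 and 0.13, 0.17 and −0.14 for those of Bcl9l. As the labels do not place these probe sets inside or outside the deletion, they do not check the genotype. The 8 epithelial markers averaged between 12.20 and 12.59 log2 in KO tumours and between 11.71 and 12.70 in WT tumours. In bulk tissue such as this, fewer cells of a type and less RNA per cell cannot be told apart. Tumours of 1 mouse are separate samples but not separate animals, so the p-values measure the spread between tumours, with the mouse entered as a random block.

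Few collagens passed the test, and those that did were lower in KO tumours. A level filter (mean of at least 5.82 log2, the 40th percentile of all probe sets) left 26 collagen genes among 12250 genes tested, and 16 collagens lay below it. With limma and Benjamini-Hochberg adjustment at 0.05, 2 of the 26 were lower in KO, Col2a1 and Col23a1, and 0 were higher. That is 7.69% lower, against 2.93% lower and 4.16% higher among all genes tested. The share rests on genes whose KO means (5.25 for Col2a1, 5.09 for Col23a1) lie under the filter, so they were tested only through their WT level. With the filter at the 60th percentile neither was tested, and 0 of 18 collagens were called. At an unadjusted p under 0.05, 4 collagens were lower and 0 higher, against 9.58% lower and 12.8% higher of all genes. Most of the others did not pass but leaned the same way: 24 of 26 differences were below 0, or 92.3%, against 46.2% of all genes. The median KO minus WT difference was −0.26 log2 over the 26 collagens and 0.03 over all genes tested. Over mouse means 1 collagen was lower, Col2a1, and 0 were higher, against 1.58% lower and 1.59% higher of all genes. In 2 collagens every KO tumour lay below every WT tumour, against 3.79% of all genes, and in 0 did every KO tumour lie above, against 5.33%. The 26 genes share libraries and stroma, so these counts describe the set and are not independent of each other.

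**Figure D1:**
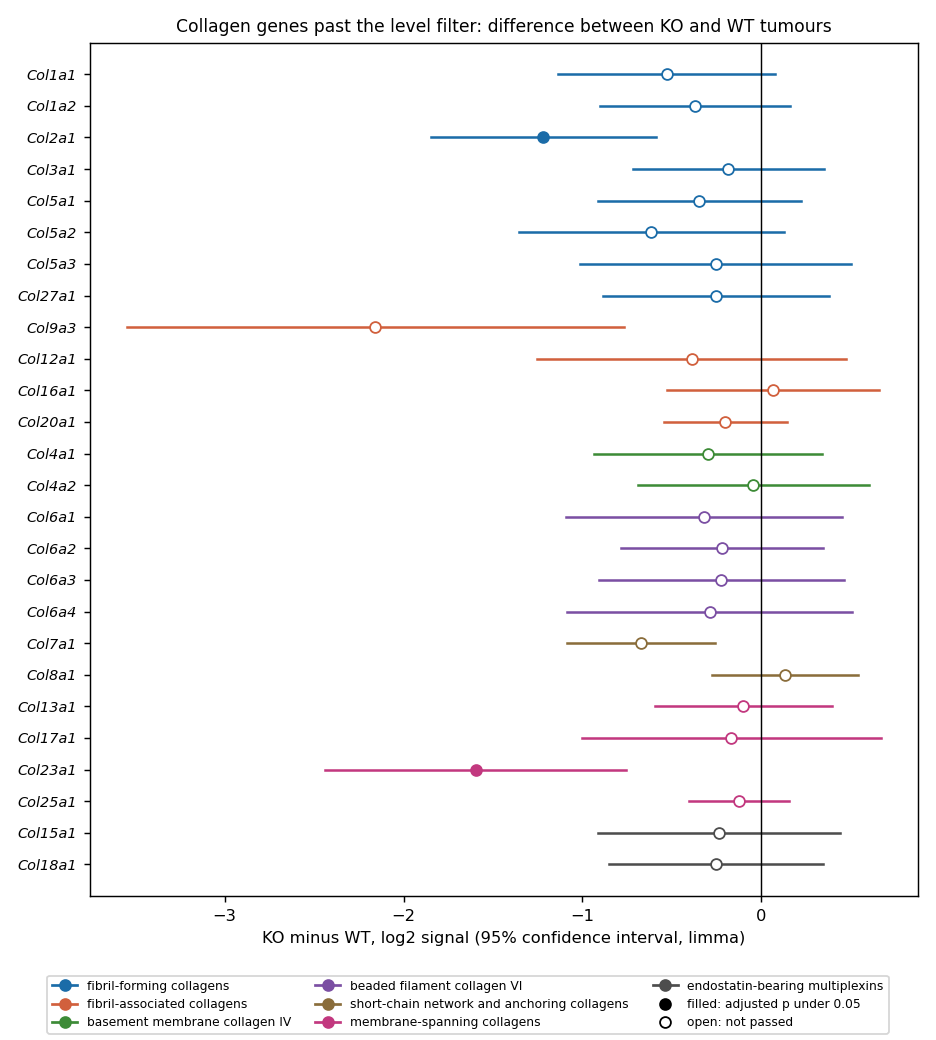
Difference of KO minus WT tumours in log2 signal for the 26 collagen genes past the level filter, grouped by structural class, with 95% confidence intervals from limma; 5 tumours a group. Filled points passed an adjusted p of 0.05 (Col2a1 and Col23a1), and 24 of 26 points lie left of 0.

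Of the fibril-forming collagens, Col2a1 was the only tested member past the threshold. It encodes the single chain of collagen II, the main fibril of cartilage. Col2a1 stood at 5.18, 5.28, 5.16, 5.18 and 5.45 log2 in KO tumours 2, 6, 7, 9 and 11, against 7.08, 5.82, 6.54, 5.78 and 7.10 log2 in WT tumours 1, 3, 8, 12 and 13. The KO tumours were tightly packed and the WT tumours scattered, and no KO tumour reached a WT tumour. The means were 5.25 ± 0.12 in KO and 6.47 ± 0.65 in WT (SD, n = 5 each), a difference of −1.22 ± 0.29 log2 (SE, limma adjusted p = 0.0295), or 2.33-fold lower in KO. The KO mean lies under the level filter, so the gene was tested only through its WT level, the size of the difference rests on a low signal, and a gene passing this way is more likely to differ. Without the filter its adjusted p was 0.0306 (limma), and over mouse means the difference was −1.26 (limma adjusted p = 0.0134). The call was lost without KO tumour 6 (−1.23, limma adjusted p = 0.0772), without WT tumour 1 (adjusted p = 0.0658) and without WT tumour 8 (−1.20, adjusted p = 0.0532), and without mouse 02 or 04.

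The chains of collagens I and III, the bulk fibrils of stroma, did not pass. Col1a1 was at 11.16, 10.57, 10.21, 9.91 and 10.24 log2 in KO tumours (2, 6, 7, 9 and 11, the order kept hereafter), against 11.25, 10.23, 10.80, 11.21 and 11.24 log2 in WT tumours (1, 3, 8, 12 and 13). KO tumour 2 ranked with the high WT tumours and WT tumour 3 with the KO tumours. The difference was −0.53 log2 (95% interval −1.13 to 0.08, limma adjusted p = 0.291). Col1a2 was at 11.90, 11.42, 11.25, 10.91 and 11.17 in KO and 12.01, 10.97, 11.87, 11.72 and 11.91 in WT, a difference of −0.37 (−0.90 to 0.16, limma adjusted p = 0.405). Col3a1 was at 12.40, 12.04, 11.63, 11.72 and 11.73 in KO and 12.31, 11.27, 12.18, 12.26 and 12.38 in WT, a difference of −0.18 (−0.72 to 0.35, limma adjusted p = 0.708). In both genes KO tumour 2 was the highest KO tumour and WT tumour 3 the lowest WT tumour. Each of the 3 intervals holds 0.

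Collagen V chains, which set the diameter of collagen I fibrils, leaned the same way. The difference was −0.35 for Col5a1 (limma adjusted p = 0.471), −0.61 for Col5a2 (0.316) and −0.26 for Col5a3 (0.714). A second probe set of Col5a1, 1416741_at, showed a difference of −0.53 ± 0.16 (SE) with an adjusted p of 0.0864 in the limma fit over all probe sets. Col27a1, a fibrillar chain known from cartilage, differed by −0.26 (adjusted p = 0.652). The median over the 8 tested fibril-forming genes was −0.36, and the 3 below the filter, Col11a1, Col11a2 and Col24a1, had mean differences between −0.15 and 0.09.

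The fibril-associated collagens sit on the surface of fibrils, and among them Col9a3, a chain of collagen IX that decorates cartilage fibrils, had the largest estimate of the 26 tested. Col9a3 stood at 8.06, 6.48, 6.79, 6.14 and 6.73 log2 in KO and at 11.22, 8.39, 7.71, 8.72 and 9.17 log2 in WT. KO tumour 2 lay above WT tumour 8, so the groups overlapped by that pair, and WT tumour 1 stood far above the rest. The difference was −2.16 ± 0.63 (SE, 95% interval −3.54 to −0.77) and did not pass (limma adjusted p = 0.0676). A second probe set, 1460693_a_at, gave 7.81, 5.24, 5.48, 4.18 and 5.58 in KO and 10.99, 7.89, 6.76, 8.53 and 9.12 in WT, a difference of −2.92 ± 0.84 (limma over probe sets, adjusted p = 0.0711). The KO mean of this second probe set, 5.66, lies under the level filter, so it was tested only through its WT level. Both probe sets placed KO tumour 2 and WT tumour 1 at the top of their groups. Without WT tumour 1 the estimate was −1.62, and without mouse 72, which leaves WT tumour 8 alone and assumes that it varies like the others, it was −0.87. Within sample numbers 254 to 258, where WT tumour 1 is the lone WT tumour, it was −4.37. Col9a3 passed in 6 of 26 alternative fits, among them those without KO tumour 2 (−2.47, limma adjusted p = 0.0437) and without WT tumour 8 (−2.54, limma adjusted p = 0.0407).

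The other chains of collagen IX lay below the filter and were not tested. Col9a2 was at 5.02, 5.24, 5.35, 5.47 and 5.30 log2 in KO and at 5.61, 5.59, 5.58, 5.51 and 5.49 log2 in WT. The gap between the groups was narrow, yet no KO tumour reached a WT tumour, a pattern held by 2.56% of all genes below the filter. Col9a1 overlapped between the groups on the probe set used for the gene, and on its other probe set, 1428571_at, it did not, with KO between 2.64 and 3.07 and WT between 3.08 and 6.17.

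The remaining fibril-associated genes past the filter gave small differences with wide errors. Col12a1, which coats collagen I fibrils, differed by −0.39 (limma adjusted p = 0.609), Col20a1 by −0.20 (0.494) and Col16a1 by 0.06 (0.918). Col14a1, Col19a1 and Col22a1 lay below the filter, as did the other chains of collagen IX.

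**Figure D2:**
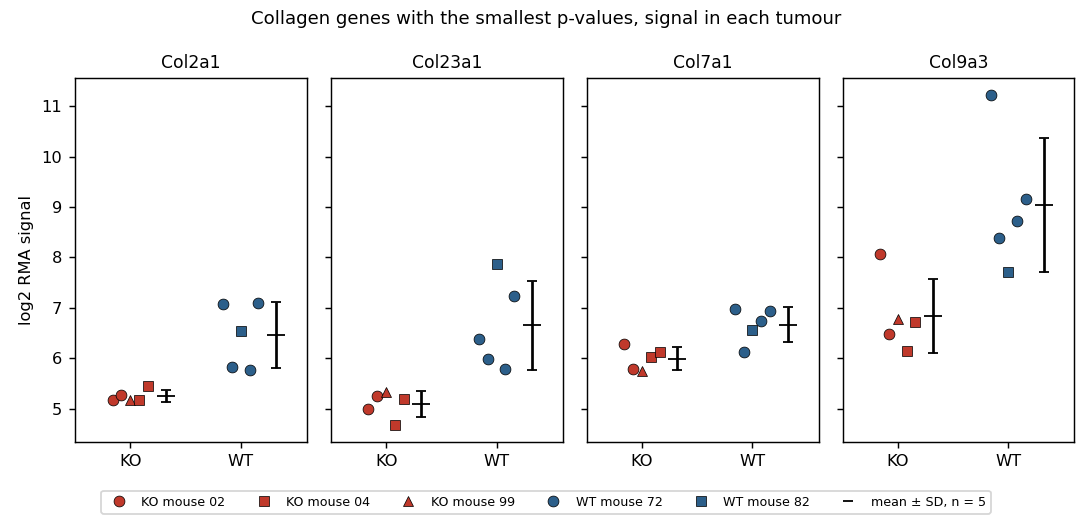
Log2 RMA signal of Col2a1, Col23a1, Col7a1 and Col9a3 in each tumour, KO left of WT, with mean and SD (n = 5 tumours) beside the points and symbols by mouse. Col2a1 and Col23a1 did not overlap between KO and WT, and KO tumour 2 of mouse 02 lay above WT tumour 8 of mouse 82 for Col9a3.

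Membrane-spanning collagens are single-pass proteins that bind cells to matrix, and 1 of the 4, Col23a1, was lower in KO. Its promoter window is shown because Col23a1 is the called gene with a window in the RefSeq table (build GRCm38.p6, chr11:51289670-51289969, + strand, 300 bases around the gene start, all in lower case since none of the motifs searched occurs).
Col23a1: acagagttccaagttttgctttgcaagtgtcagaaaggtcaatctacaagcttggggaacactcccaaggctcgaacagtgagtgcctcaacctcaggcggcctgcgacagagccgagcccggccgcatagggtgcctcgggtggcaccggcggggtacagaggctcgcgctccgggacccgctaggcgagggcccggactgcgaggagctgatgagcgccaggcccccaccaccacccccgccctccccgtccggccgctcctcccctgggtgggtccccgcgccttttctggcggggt
Col23a1 stood at 5.0, 5.26, 5.34, 4.67 and 5.19 log2 in KO, against 6.38, 5.99, 7.87, 5.78 and 7.24 log2 in WT. Every KO tumour lay below every WT tumour, and WT tumours 8 and 13, which come from different mice, were the highest. The difference was −1.60 ± 0.38 (SE, limma adjusted p = 0.0319), or 3.02-fold lower in KO, with means of 5.09 ± 0.27 in KO and 6.65 ± 0.88 in WT (SD, n = 5 each).

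The other probe sets of Col23a1, both below the filter and not tested, gave the same separation. Probe set 1429209_at had 4.10, 4.07, 4.24, 4.13 and 4.47 in KO and 5.69, 5.52, 6.56, 4.61 and 6.58 in WT. Probe set 1429210_at had 3.68, 3.59, 3.88, 3.87 and 3.90 in KO and 5.26, 4.45, 5.45, 4.36 and 5.30 in WT. As with Col2a1, the KO mean of the tested probe set lay under the filter, and without the filter its adjusted p was 0.0357 (limma). The call was lost in 6 of 10 fits that left out 1 tumour, those without KO tumour 2, 6, 9 or 11 or without WT tumour 1 or 13, with limma adjusted p between 0.0556 and 0.0692. It was also lost over mouse means (−1.97, limma adjusted p = 0.0806) and without mouse 02 or 04.

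The other membrane-spanning collagens differed little. Col17a1, the hemidesmosome collagen of epithelia, differed by −0.17 (limma adjusted p = 0.838), with WT tumour 13 alone at 7.53 and the other 9 tumours between 5.17 and 5.94. Col13a1 differed by −0.10 (0.835) and Col25a1, known from neurons, by −0.12 (0.623).

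Col7a1 encodes the anchoring fibrils that pin the basement membrane to the stroma. Its window (RefSeq, GRCm38.p6, chr9:108953336-108953635, + strand) is shown as that of the tested collagen next nearest to the threshold, and the capitals mark a CCAAT box on the reverse strand.
Col7a1: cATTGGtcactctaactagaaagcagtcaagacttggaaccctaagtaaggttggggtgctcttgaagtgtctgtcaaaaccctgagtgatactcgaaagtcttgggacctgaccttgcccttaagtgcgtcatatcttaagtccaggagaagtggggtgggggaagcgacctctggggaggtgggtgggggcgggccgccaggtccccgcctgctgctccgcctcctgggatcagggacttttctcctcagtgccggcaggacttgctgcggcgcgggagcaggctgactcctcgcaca
Col7a1 stood at 6.29, 5.78, 5.74, 6.02 and 6.13 log2 in KO and at 6.98, 6.13, 6.55, 6.74 and 6.94 log2 in WT. WT tumour 3 was the only WT tumour within the KO range. The difference was −0.67 ± 0.19 (SE, 95% interval −1.09 to −0.26) and missed the threshold (limma adjusted p = 0.0572). It passed in 6 of 26 alternative fits, among them the fit without WT tumour 3 (−0.80, limma adjusted p = 0.0164).

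Col8a1, a short-chain collagen of vessel walls and other sheet-like matrices, differed between its 3 probe sets. The probe set with the highest mean, 1418440_at, stood at 6.65, 6.55, 6.57, 7.35 and 6.60 log2 in KO and at 6.39, 6.77, 6.93, 6.52 and 6.40 log2 in WT, with overlapping groups and a difference of 0.13 ± 0.18 (SE, limma adjusted p = 0.726). Probe set 1455627_at stood at 7.79, 7.77, 5.99, 7.95 and 7.71 in KO and at 5.53, 3.68, 6.63, 4.57 and 5.83 in WT. There, 4 KO tumours lay above all WT tumours and KO tumour 7 lay among the WT tumours. The WT mean of this probe set, 5.25, lies under the level filter, so it was tested only through its KO level. Its difference was 2.11 ± 0.58 (SE) and missed the threshold (limma over probe sets, adjusted p = 0.0581). It passed as higher in 6 of 24 alternative fits, among them those without KO tumour 7 (2.53, limma adjusted p = 0.0209) and without WT tumour 8 (2.53, limma adjusted p = 0.0277). Probe set 1418441_at, below the filter, stood at 5.98, 5.67, 4.93, 6.01 and 5.69 in KO and at 3.92, 3.75, 5.43, 3.36 and 4.86 in WT, again with KO tumour 7 lowest in KO and WT tumour 8 highest in WT. The size of the difference thus depends on the probe set taken, and with the mean of all its probe sets it was 1.21 (limma adjusted p = 0.0546). Col8a2 and the growth plate collagen Col10a1 lay below the filter.

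**Figure D3:**
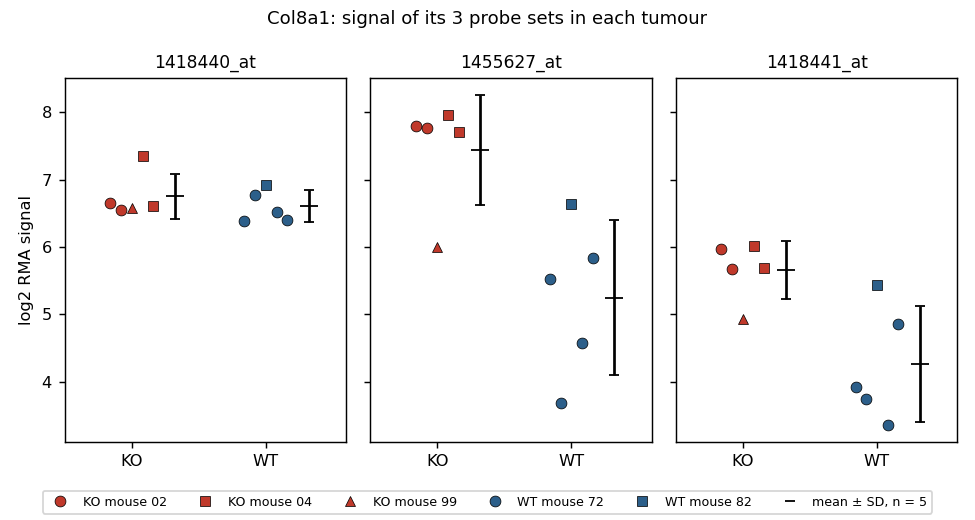
Log2 RMA signal of the 3 probe sets of Col8a1 in each tumour, KO left of WT, with mean and SD (n = 5 tumours). The groups overlap on 1418440_at, while on 1455627_at and 1418441_at 4 KO tumours lie above all WT tumours and KO tumour 7 does not.

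Across all 42 genes, probe sets of 1 gene past the filter pointed the same way. Of 14 genes with several such probe sets, 14 had a single sign. Over the 42 collagen probe sets past the filter, 39 differences were below 0 and 2 passed, the probe sets of Col2a1 and Col23a1, against 2.52% lower and 3.18% higher of 22760 probe sets tested. At any level, 6 of 82 collagen probe sets had every KO tumour below every WT tumour, against 3.45% of 34945 probe sets with 1 symbol. These 6 include every probe set of Col23a1 and are thus not separate genes, the others being of Col2a1, Col9a1 and Col9a2. On the probe set taken for the gene, the pattern held in 2 tested collagens and in 1 below the filter.

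Col4a1 and Col4a2, the common chains of basement membrane collagen IV, are neighbours that start away from each other. Their windows (RefSeq, GRCm38.p6, chr8:11312777-11313076 on the − strand and chr8:11312555-11312854 on the + strand) overlap by 78 bases, and they are shown because the pair shares this stretch. Capitals mark a CCAAT box in each window, on the reverse strand in the first and on the forward strand in the second. These boxes are separate sites, and neither lies wholly within the shared stretch.
Col4a1: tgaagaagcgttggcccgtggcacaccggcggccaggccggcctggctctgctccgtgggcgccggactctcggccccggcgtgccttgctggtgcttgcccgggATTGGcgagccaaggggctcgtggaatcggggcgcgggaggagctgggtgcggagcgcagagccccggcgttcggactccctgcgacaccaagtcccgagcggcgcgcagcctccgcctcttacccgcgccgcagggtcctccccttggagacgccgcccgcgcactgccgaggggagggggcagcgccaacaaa
Col4a2: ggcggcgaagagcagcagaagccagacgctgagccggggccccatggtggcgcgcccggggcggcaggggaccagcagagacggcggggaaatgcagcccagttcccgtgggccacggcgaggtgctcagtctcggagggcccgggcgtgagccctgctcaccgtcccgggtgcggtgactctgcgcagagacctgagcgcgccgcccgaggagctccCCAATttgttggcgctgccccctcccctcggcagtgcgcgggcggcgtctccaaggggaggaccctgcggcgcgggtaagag
Col4a1 stood at 11.59, 10.78, 10.78, 10.53 and 10.73 log2 in KO and at 11.45, 10.25, 11.30, 11.25 and 11.62 log2 in WT. Col4a2 stood at 9.95, 8.81, 8.91, 8.82 and 8.95 in KO and at 9.21, 8.27, 9.38, 9.30 and 9.45 in WT. In both genes KO tumour 2 stood apart above the other KO tumours and WT tumour 3 apart below the other WT tumours. The differences were −0.30 (95% interval −0.93 to 0.34, limma adjusted p = 0.597) for Col4a1 and −0.04 (−0.69 to 0.60, limma adjusted p = 0.951) for Col4a2. The tissue-restricted chains Col4a3, Col4a4, Col4a5 and Col4a6 lay below the filter. Col4a3 had the largest of their mean differences, 0.61, with KO between 5.54 and 6.46 and WT between 4.77 and 5.68.

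Collagen VI chains and the multiplexins gave small differences close to each other. The differences were −0.32 for Col6a1 (limma adjusted p = 0.645), −0.22 for Col6a2 (0.668), −0.22 for Col6a3 (0.722) and −0.29 for Col6a4 (0.692), and Col6a5 lay below the filter. In the 4 tested collagen VI genes WT tumour 3 was the lowest WT tumour, at 7.96 for Col6a1 and 6.96 for Col6a3. Col15a1 and Col18a1, proteoglycan-like collagens of the basement membrane zone of which Col18a1 yields endostatin, differed by −0.24 (limma adjusted p = 0.700) and −0.25 (0.633). Col26a1 lay below the filter. Over the 16 collagens below it, 8 had the lower mean in KO, and the mean differences ran from −0.31 (Col10a1) to 0.61 (Col4a3).

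The same tumours stood at the ends of their groups in many collagens. KO tumour 2 was the highest KO tumour in 20 of 26 tested collagens, or 76.9%, against 28.4% of all genes tested, and KO tumour 9 the lowest in 13, or 50%, against 24.5%. Among WT tumours, tumour 3 was the lowest in 17 of 26, or 65.4%, against 25.2%, and tumour 13 the highest in 11, or 42.3%, against 14.5%. The mean signal over the 26 genes was 8.42, 7.83, 7.78, 7.60 and 7.79 log2 in KO and 8.50, 7.74, 8.32, 8.33 and 8.62 log2 in WT. Thus KO tumour 2 reached the WT tumours, WT tumour 3 lay among the KO tumours, and the other 4 KO tumours lay below the other 4 WT tumours. The means were 7.88 ± 0.31 in KO and 8.30 ± 0.34 in WT (SD, n = 5 each), a difference of −0.42. Leaving out WT tumour 3 gave −0.56, and leaving out KO tumour 2 gave −0.55. The 6 tested collagens in which KO tumour 2 was not the highest KO tumour were Col2a1, Col8a1, Col16a1, Col20a1, Col23a1 and Col25a1.

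**Figure D4:**
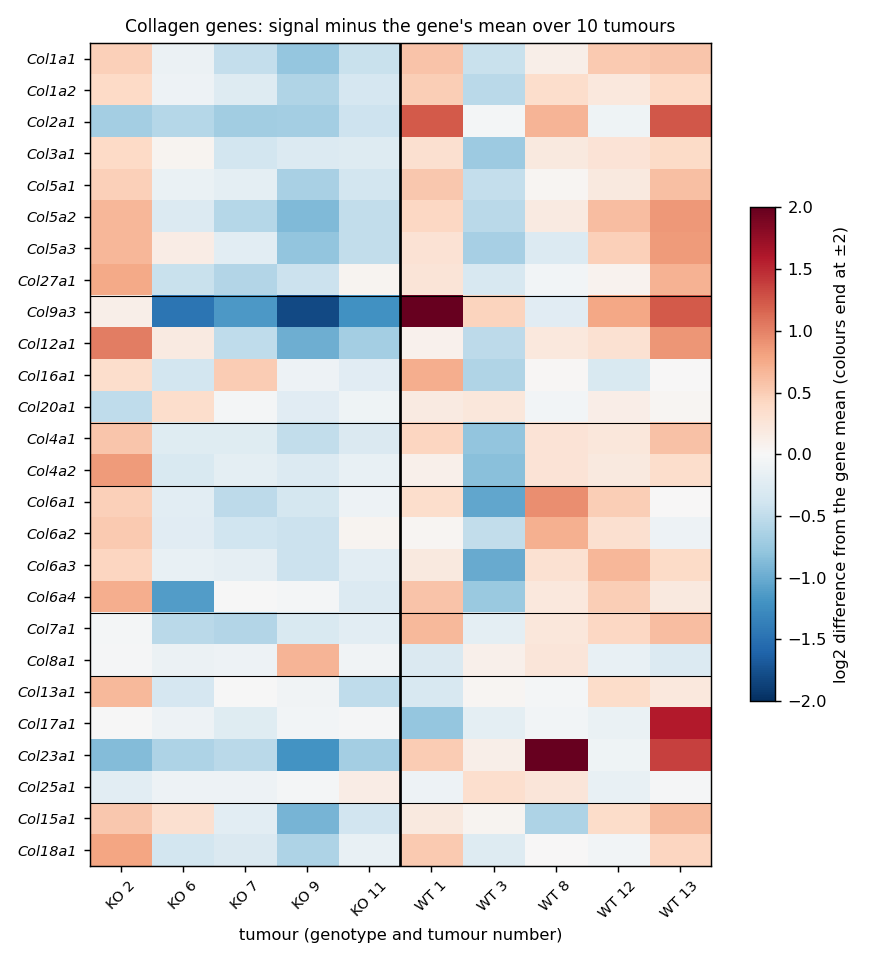
Log2 signal of the 26 tested collagen genes in each tumour minus the gene's mean over the 10 tumours, KO left of WT, with thin lines between structural classes. Column KO 2 is red in most genes and column WT 3 is blue in most genes, while Col2a1 and Col23a1 are blue in every KO column.

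Stromal and RNA measures moved with these tumours. Of 14 fibroblast markers outside the collagens, 5 also stand in the list of collagen partners used further on, and 10 were tested. Of the tested markers 1 was lower in KO (Vim, the mesenchymal filament protein vimentin, −1.22, limma adjusted p = 0.00414) and 0 were higher, with a median of −0.21. Among all genes 2.93% were lower and 4.16% higher, so 1 call in a list of 10 is little to read from. The mean level of the tested markers was 9.65, 9.27, 8.98, 8.60 and 8.83 log2 in KO and 9.75, 8.79, 9.44, 9.44 and 9.77 log2 in WT, again with KO tumours 2 and 9 and WT tumours 13 and 3 at the ends of their groups. Fbln1 and Dcn, matrix genes of fibroblasts, differed by −1.16 (limma adjusted p = 0.110) and −0.74 (0.214). Of the 10 tested fibroblast markers 7 differences were below 0 and 3 above, those of Pdpn (0.37), Thy1 (0.03) and S100a4 (0.03), and Postn (−0.10) and Dpt (−0.08) lay near 0. The endothelial markers averaged between 6.60 and 7.68 in KO and between 6.50 and 7.65 in WT, with 0 of 8 called, the smallest p being that of Vwf (−0.89, limma adjusted p = 0.215). The smooth muscle markers had 0 of 8 called (Myl9 −0.54, limma adjusted p = 0.382), with means of 7.83 ± 0.39 in KO and 7.91 ± 0.40 in WT. The epithelial markers also had 0 of 8 called (Vil1 0.69, limma adjusted p = 0.0716). Of the leukocyte markers 5 of 8 were tested and 2 were higher in KO (Cd8a 2.70, limma adjusted p = 0.000192, and Cd79a 1.81, limma adjusted p = 0.00151), with mean levels between 9.32 and 9.53 in KO and between 8.00 and 8.76 in WT. That compares with 4.16% of all genes called higher. The WT means of Cd8a (5.77) and Cd79a (5.07) lie under the level filter, so both were tested only through their KO level. A gene passing this way is more likely to differ, so the 2 calls are not read against that share. The other tested leukocyte markers did not pass, with Ptprc at 0.94 (limma adjusted p = 0.0671), Lyz2 of myeloid cells at −0.43 (0.243) and the macrophage receptor gene Csf1r at 0.01 (0.991).

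The difference between 3′ and 5′ control probe sets of actin and Gapdh, a sign of RNA length after amplification, was 1.17, 0.86, 0.73, 0.84 and 0.71 log2 in KO and 0.92, 0.78, 0.97, 0.96 and 1.14 log2 in WT. KO tumour 2 and WT tumour 13 were the highest of their groups and WT tumour 3 the lowest of its group, as for many collagens. KO tumour 9, the lowest KO tumour in 13 collagens, had the middle value of its group, and KO tumour 11, the lowest in 1 collagen, had the lowest. With this difference as a covariate the collagen median was −0.07 and 0 of 26 collagens passed (Col2a1 −1.13, limma adjusted p = 0.0771, and Col23a1 −1.53, limma adjusted p = 0.0753). Sample numbers in the labels fell into a range of 191 to 229, with 1 KO and 4 WT tumours, and a range of 254 to 258, with 4 KO and 1 WT tumour, which the labels do not call a batch and each of which leaves 1 tumour alone in its group. The collagen median was −0.36 within the lower range, −0.40 within the upper range and −0.43 once the range entered the fit. With the range in the fit 3 collagens were lower, Col2a1, Col7a1 and Col9a3, beside 424 lower of all 12250 genes tested. The part that the cell types had in the collagen differences was not tested.

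The genes that process collagen were followed next. Of 18 modification and folding genes on the array 14 were tested, 2 were lower in KO and 0 higher, with a median of −0.15, where 2.93% of all genes were lower and 4.16% higher. Plod1 and Plod2 encode lysyl hydroxylases, whose hydroxylysines carry the cross-links of collagen. Plod1 stood at 6.73, 6.53, 6.27, 5.98 and 6.31 log2 in KO and at 7.84, 6.91, 7.27, 7.13 and 7.34 log2 in WT, with no overlap (all KO below all WT in 3.79% of all genes) and a difference of −0.93 ± 0.20 (SE, limma adjusted p = 0.0197). Plod2 stood at 6.72, 6.43, 6.21, 5.55 and 5.63 in KO and at 6.69, 7.00, 6.85, 7.55 and 7.35 in WT, a difference of −0.97 ± 0.26 (limma adjusted p = 0.0484) in which KO tumour 2 lay just above WT tumour 1. Over mouse means neither passed (Plod1 adjusted p = 0.0568, Plod2 0.205, limma). Serpinh1, the collagen chaperone HSP47, was at 9.42 ± 0.60 in KO and 10.56 ± 0.59 in WT (SD, n = 5 each) and did not pass (−1.13, limma adjusted p = 0.0878). Of the 14 tested genes 8 differences were below 0 and 6 above. Among those above 0 were Plod3, a further lysyl hydroxylase gene (0.04, limma adjusted p = 0.927), and Colgalt1 (0.34, limma adjusted p = 0.137).

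Of 10 cleavage and cross-linking genes on the array 6 were tested, 2 were lower in KO and 0 higher, with a median of −0.56, beside the same 2.93% lower and 4.16% higher over all genes. Lox, the lysyl oxidase that starts cross-linking, stood at 6.87, 6.30, 6.29, 5.48 and 5.97 log2 in KO and at 7.69, 6.59, 8.18, 8.20 and 8.08 log2 in WT. WT tumour 3 lay below KO tumour 2, and the other WT tumours lay above all KO tumours. The difference was −1.58 ± 0.36 (SE, limma adjusted p = 0.0256), or 2.99-fold lower in KO, and it passed over mouse means (limma adjusted p = 0.0473). Bmp1, the protease that trims the carboxy ends of fibrillar procollagens, stood at 7.69, 7.23, 7.24, 6.98 and 7.36 in KO and at 8.62, 7.56, 8.30, 7.88 and 8.36 in WT. Its difference was −0.85 ± 0.22 (SE, limma adjusted p = 0.0412), and it passed over mouse means (limma adjusted p = 0.0413). Loxl4 differed by −0.26 (limma adjusted p = 0.399). Of 10 fits that left out 1 tumour each, Plod1 passed in 10. Lox passed in 5 and was lost without KO tumour 6 or 11 or WT tumour 1, 8 or 13 (limma adjusted p up to 0.0659). Bmp1 passed in 3, those without KO tumour 2 or WT tumour 3 or 12, with an adjusted p up to 0.109 in the others (limma). Plod2 passed in 1, that without KO tumour 2, with an adjusted p up to 0.0958 in the others (limma).

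**Figure D5:**
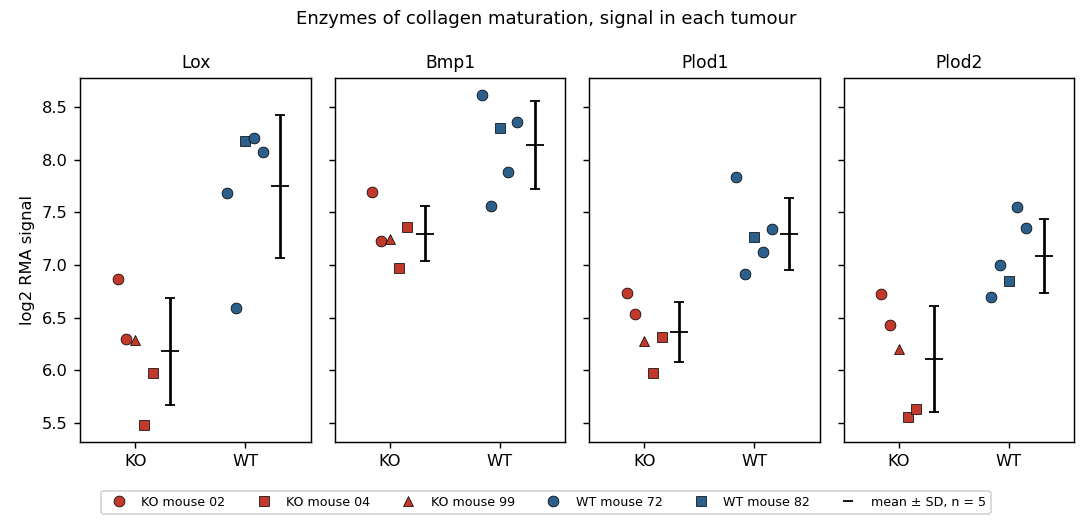
Log2 RMA signal of Lox, Bmp1, Plod1 and Plod2 in each tumour, KO left of WT, with mean and SD (n = 5 tumours). All 5 KO tumours lie below the WT tumours for Plod1, while KO tumour 2 lies above the lowest WT tumour for Lox, Bmp1 and Plod2.

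The binding partners and receptors of collagen had 0 calls. Of 15 proteoglycans and other partners 11 were tested, with a median of −0.25. Ogn, the small proteoglycan osteoglycin, lay higher in every KO tumour than in any WT tumour, between 6.65 and 7.57 log2 in KO and between 5.17 and 6.50 in WT (0.91, limma adjusted p = 0.0799). Among all genes tested 5.33% had this pattern. Of 11 receptor and uptake genes on the array 9 were tested, with a median of 0.12. Itgb1, the integrin beta1 chain shared by the collagen-binding integrins, lay lower in every KO tumour, between 10.83 and 10.95 log2 in KO and between 11.07 and 11.42 in WT (−0.32, limma adjusted p = 0.0715). The same separation was found in 3.79% of all genes tested. Adgrg6, an adhesion receptor reported to bind collagen IV, differed by 0.90 (limma adjusted p = 0.105) and the collagen-binding integrin chain Itga1 by 0.47 (0.336). At an unadjusted p under 0.05 the partners had 1 higher and 2 lower, and the receptors 1 higher and 1 lower, beside 12.8% higher and 9.58% lower of all genes.

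The promoter windows of RefSeq were searched for 3 motifs on both strands. Windows matched 33 of the 42 collagen genes by symbol, 36 windows of 300 bases in all. They were the TCF core CTTTGA, the CCAAT box and the TATAAA box, none of which contains another. CTTTGA occurred in 9 of 36 collagen windows, or 25.0%, against 16.0% of all 32851 windows, and the 9 genes were Col13a1, Col15a1, Col19a1, Col20a1, Col5a3, Col6a1, Col6a2, Col9a1 and Col9a2. CCAAT occurred in 36.1% of collagen windows against 37.4% of all, and TATAAA in 13.9% against 13.6%. Of the 9 genes with CTTTGA, 6 were past the level filter and 0 passed the test. This count could not have been higher, since Col2a1 had no window and the Col23a1 window held none of the motifs. It therefore says nothing on the motif.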

How the data were processed

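RNA of each tumour (30 ng) was amplified and put on 1 array, per the labels' protocols. Because the protocol text pools the material of a mouse while most mice have several arrays, each array was taken as 1 tumour. What the authors deposited is a log2 signal for every probe set, computed with RMA per the submitters' processing notes, and the version of RMA is not given in the sources used here. Precision is limited by the number of arrays.

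A single gene symbol was held by 34945 of 45101 probe sets. The others were 64 controls, 932 with several symbols and 9160 with none, which stayed out of the gene comparison, and the actin and Gapdh controls gave the 3′ to 5′ difference. RefSeq gave the current symbol by Entrez identifier for 34741, and 204 retained theirs. A gene entered the test if its mean reached the 40th percentile of probe set means, as 12250 of 18193 did. The limma fit (version 3.58.1, lmFit and eBayes in R 4.3.3, statmod 1.5.0) compared KO with WT, and duplicateCorrelation treated mice as random blocks (correlation 0.0586 for genes, 0.0769 for probe sets), so that fitted differences can depart slightly from differences of means. Benjamini-Hochberg adjustment ran over all tested genes. The fitting procedure was tested on simulated data. Collagens under the filter received values only. Every collagen is named, with full statistics for called genes, the 4 of highest level and the 2 to 4 of smallest p in each class or list. The members, gene lists and alternatives were chosen with earlier results of these data known, and lists are described by counts and medians.

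The alternatives tried changed the block (none, or 1 mean per mouse), the filter (none, or 60th percentile), the probe set rule (all averaged, or x_at and s_at left out), the scaling (centred arrays, cyclic loess), the variance model (trend with robust, array weights), the covariate (number range, 3′ to 5′ difference) or the samples (a number range alone, 1 tumour or mouse fewer). A fold of at least 2 was also required once, under which the same 2 collagens were called.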

Additional observations from a re-analysis of the deposited data

Results flagged for a closer look

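In 11 of 84 groups (42 collagens in 2 genotypes) 1 tumour stood apart from the other 4 by Dixon's criterion at 95%, which chance gives in about 1 of 20 groups, and groups that share tumours are not independent. WT tumour 3 was the low one in Col1a2 (10.97 log2, the next at 11.72), Col3a1 (11.27, the next at 12.18), Col4a1 (10.25, the next at 11.25), Col4a2 (8.27, the next at 9.21), Col6a3 (6.96, the next at 8.17) and Col6a4 (7.23, the next at 8.17). It was the high one in Col11a2, a gene below the level filter (5.27, the next at 4.81). KO tumour 2 was the high one in Col4a1 (11.59, the next at 10.78) and Col4a2 (9.95, the next at 8.95), and the low one in Col22a1, also below the filter (4.74, the next at 5.20). KO tumour 9 was the high one in Col8a1 (7.35, the next at 6.65). Neither called collagen, Col2a1 or Col23a1, had a tumour standing apart in this way. Without WT tumour 3 both remained lower past the threshold, and without KO tumour 2 Col2a1 did and Col23a1 did not.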

How the results depend on the processing

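No paired analysis was possible because no mouse gave tumours to both groups. The collagen median stayed below 0 in every alternative run, between −0.48 and −0.07, and 0 collagens were higher in any on the probe set taken for the gene or on the mean of its probe sets, while another probe set of Col8a1 passed as higher in 6 of 24. That probe set was tested only through its KO level. The count of lower collagens, 2, was 1 over mouse means and with the mean of all probe sets, 4 with no block or with array weights, and 0 within numbers 191 to 229, with the 60th percentile filter (under which neither called gene was tested), with the 3′ to 5′ covariate and without mouse 02 or 04. It was 0 to 3 with single tumours left out. The lower count over all 12250 genes tested, 359, also moved: it was 193 over mouse means, 452 with no block and 531 with array weights. With the mean of all probe sets it was 346 of 11350 genes. Within the number ranges and without mouse 72, 1 tumour is alone in its group and is assumed to vary like the others.

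Lower genes among the processing, partner and receptor lists, 4, were 2 over mouse means, with either covariate, 0 inside both ranges and without mouse 04 or 72, 1 with the 60th percentile filter and 8 with array weights, and 1 to 6 with single tumours left out. Higher ones, 0, were 1 with the mean of all probe sets, within numbers 254 to 258 and without mouse 72, and 0 to 1 with single tumours left out. Over all genes, 509 higher and 359 lower became 195 and 193 over mouse means, 12 and 18 within numbers 191 to 229, 331 and 217 with the 3′ to 5′ covariate, 318 and 230 without mouse 02, 265 and 202 without mouse 04, and 135 and 153 without mouse 72. Lower genes were 219 with the 60th percentile filter. Single tumours left out gave 286 to 539 higher and 186 to 406 lower.

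Differences that changed sign belonged to genes that were not called. With the 3′ to 5′ covariate they were 0.0574 for Col13a1, 0.0273 for Col17a1, 0.0085 for Col3a1, 0.20 for Col4a2 and 0.0256 for Col5a3. With the range covariate they were 0.0672 for Col13a1, −0.0685 for Col16a1 and 0.12 for Col17a1, and within numbers 254 to 258 they were 0.25 for Col13a1, −0.81 for Col16a1, 0.73 for Col17a1, 0.0494 for Col25a1 and 0.0593 for the smooth muscle gene Des. Without mouse 04 they were 0.0469 for Col12a1, 0.0553 for Col13a1, 0.0768 for Col15a1, 0.11 for Col4a2, 0.0664 for Col5a3 and −0.0044 for Col8a1, and without mouse 72 they were 0.47 for Col15a1, 0.14 for Col5a3 and −0.19 for Col8a1. Over mouse means they were 0.0025 for Col15a1 and −0.0056 for Col8a1, within numbers 191 to 229 −0.0706 for Col8a1, and with array weights −0.0436 for Col16a1. With single tumours left out the ranges were −0.28 to 0.0103 for Col13a1, −0.0683 to 0.25 for Col16a1, −0.37 to 0.20 for Col17a1, −0.26 to 0.0435 for Col4a2 and −0.0035 to 0.22 for Col8a1. The causes were not tested.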
